A study of Mus musculus with 4 samples.

Results

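The spots of MC38 tumor sections that held the most Cxcl9 RNA were compared with those that held the least. Within each of 4 sections, spots with 5000 or more UMIs (unique molecular identifiers, 1 per captured RNA molecule) were ranked by the share of their UMIs that came from Cxcl9. The top 10% were called Cxcl9-high and the lowest 30% Cxcl9-low, with ties ordered by total UMIs, deepest first. This gave 1179 high and 3541 low spots, 4720 of the 11798 spots with 5000 or more UMIs and of 11947 spots in all. The other 7078 spots were kept apart as middle spots. The members were thus chosen by the measured Cxcl9 values of these same spots, so its own values are given below only as a description, and it was left out of every test.

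The sections came from subcutaneous tumors of MC38, a transplanted colon carcinoma line, which was injected into female mice of 8 to 12 weeks. The hosts were F1 hybrids from crosses of C57BL/6J with a Collaborative Cross strain. The genotype C57BL/6J x CC075/UncJ (CC075F1) was a responder strain to PD-1 blockade in the study and C57BL/6J x CC080/TauUncJ (CC080F1) a non-responder strain, with 2 tumors each. None of these tumors had received PD-1 blockade: every host was given a single 200 µg intraperitoneal dose of the isotype control antibody 2A3 once its tumor had reached 75 to 110 mm3, and tissue was taken 48 hours later. Each tumor is a biological replicate and gave 1 section, which was assayed with Visium, an array of barcoded spots that each capture RNA from several cells. With 2 tumors per strain, a p-value here measures the spread between these 4 sections, and the strain and anything else that differed between the 4 tumors cannot be told apart.

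Cxcl9 encodes a chemokine that macrophages, dendritic cells and other cells secrete when interferon gamma reaches them. It attracts T cells and natural killer cells that carry the receptor CXCR3, and these cells are themselves the main source of interferon gamma. Interferon gamma acts through its receptor and JAK kinases to induce guanylate-binding proteins, immunity-related GTPases and the machinery of antigen presentation. A spot holds a mixture of cells, so fewer cells of a type and less RNA per cell cannot be told apart in any of the values below.

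Levels are given as CPM, the UMIs of a gene divided by all UMIs of the spots of a class in a section and multiplied by 1000000. Values for the sections are always listed in the order CC075F1 replicate 1, CC075F1 replicate 2, CC080F1 replicate 1 and CC080F1 replicate 2. Over their pooled spots, Cxcl9 stood at 968, 1155, 259.8 and 544 CPM in the high class, at 335, 313, 46.7 and 112 CPM in the middle class and at 92.9, 53.6, 0 and 5.32 CPM in the low class. The classes were therefore relative to the section: a low spot of CC075F1 replicate 1 could hold more Cxcl9 than a middle spot of CC080F1 replicate 1. The lowest high spot and the highest spot left out of the class stood at 647 and 645 CPM in the first section, at 759 and 756 CPM in the second, at 141.02 and 140.94 CPM in the third and at 324.9 and 324.8 CPM in the fourth. At the low limit the highest low spot and the lowest spot above it stood at 162.6 and 162.7 CPM in the first section, at 109.5 and 109.7 CPM in the second, at 0 and 0 in the third and at 24.12 and 24.14 CPM in the fourth. Cxcl9 was sparse in CC080F1 tumors. A high spot held a median of 25, 39, 6 and 16 Cxcl9 UMIs, and in CC080F1 replicate 1 all 831 low spots and another 264 middle spots held no Cxcl9 UMI.

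**Figure D1:**
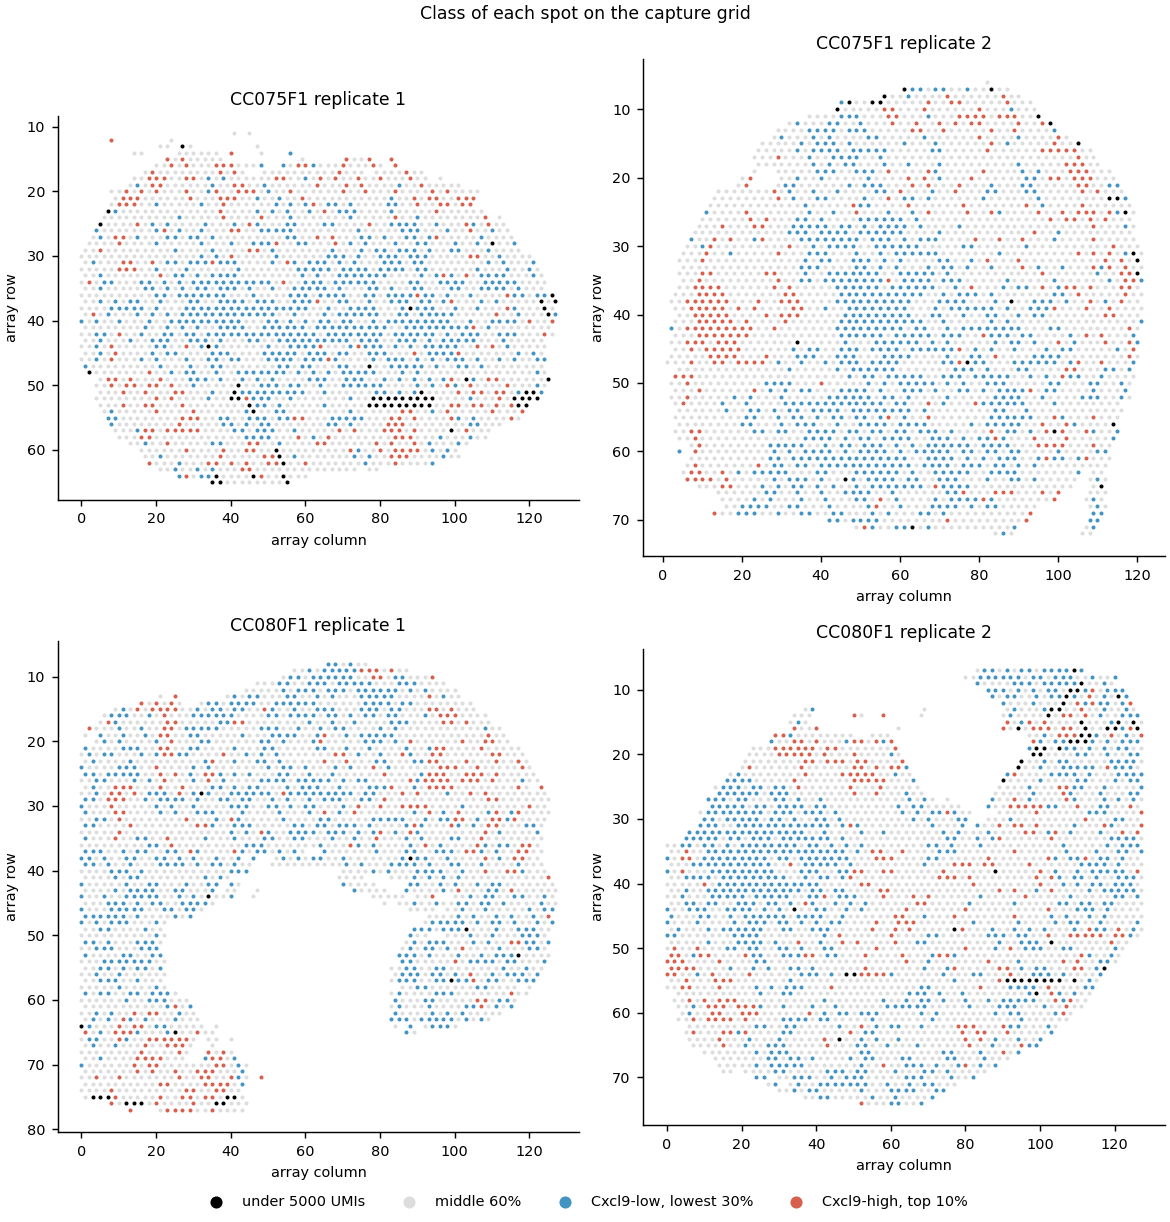
Class of every spot on the capture grid of the 4 sections (axes: array column and row), with high spots in red, low spots in blue, middle spots in grey and spots under 5000 UMIs in black. High spots lie in clumps and bands: on average 30.9% of the grid neighbours of a high spot were high spots themselves, against 2.56% of the neighbours of a low spot.

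High spots lay next to each other. The share of grid neighbours that were also high was 25.9%, 35.7%, 32.8% and 29.1% for high spots and 2.59%, 1.99%, 3.10% and 2.57% for low spots, where high spots made up 10% of each section. The difference averaged 28.3 percentage points (SD 4.44, n = 4 sections). Neighbours were counted by class, and the classes rest on the Cxcl9 values, so this is a description only. High spots were shallower than low spots in every section, with medians of 29082, 35525, 28387 and 32920.0 UMIs against 34837, 50083, 36342 and 38899.5 UMIs (mean log2 difference -0.34, SD 0.12, n = 4). Total UMIs are part of the rule, as the divisor of the share and in the order of ties. In CC080F1 replicate 1 the ties at 0 Cxcl9 UMIs put the deepest of these spots in the low class. The gap in depth is therefore a description only. Classes drawn within strata of like depth gave 1327 higher and 1096 lower genes in place of the 1383 and 980 reported next. The share of mitochondrial UMIs was higher in high spots of both CC075F1 sections and lower in both CC080F1 sections. The mean difference was 0.08 percentage points (SD 0.27, n = 4, two-sided exact permutation test within sections, p = 0.625). The smallest p that 4 sections allow in this test is 0.125. For median genes per spot no difference was detected (mean log2 difference -0.06, SD 0.05, n = 4, exact permutation p = 0.25).

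The position relative to the tissue edge went in opposite directions in the 2 strains. Of the high spots, 35.8%, 25.2%, 27.8% and 20.5% lay within 3 grid steps of the edge, and of the low spots 7.54%, 9.94%, 32.0% and 22.1%. High spots were thus nearer the edge in both CC075F1 sections, by 28.3 and 15.3 percentage points, and slightly less often near it in both CC080F1 sections, with differences of -4.21 and -1.56 points. Over the 4 sections no difference was detected (mean 9.46 points, SD 15.2, n = 4, exact permutation p = 0.5).

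Many genes changed between the classes. Of 13207 genes tested, 1383 were higher in high spots (10.5%) and 980 were lower (7.42%), 17.9% in all, at an adjusted p of 0.05, in edgeR's quasi-likelihood test with the section as a block and Benjamini-Hochberg adjustment, which is the source of all adjusted p-values below. At an unadjusted p of 0.05, 4448 genes passed (33.7%). Large changes were mostly increases: 591 called genes rose by at least 1 on the log2 scale (4.47%) and 67 fell by at least as much (0.507%). The balance depended on scaling. With TMM scaling, used throughout, 58.5% of calls were increases and the median change over all genes was -0.02 on the log2 scale, and with library size alone 86.0% were increases and the median was 0.13, a shift of 0.15. Setting the classes on a random split of the UMIs of each spot and comparing genes in the remaining UMIs gave 1011 higher and 747 lower genes. TMM scaling also means that a fold change can differ from the ratio of the CPM values printed beside it. Middle spots, which took no part in the test, lay between low and high spots in all 4 sections for 1442 of the 2363 called genes (61%). For all 13207 genes the count was 2964 (22.4%). Called genes were selected for a gap between high and low spots, which by itself makes a middle value between them more likely. These shares are therefore a description only.

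The gene with the largest increase among those of at least 10 CPM was Serpina3g (chr12:104236245-104241939 on GRCm38, plus strand), a serine protease inhibitor expressed by activated T cells and macrophages. It stood at 127, 125, 47.0 and 61.8 CPM in high spots and 19.3, 7.85, 7.17 and 5.99 CPM in low spots. Every high value was above every low value (log2 fold change 3.07, SE 0.17, adjusted p = 0.000267). Iigp1, an immunity-related GTPase, stood at 157, 125, 68.2 and 109.9 CPM against 37.1, 12.7, 17.1 and 13.3 CPM (log2 fold change 2.47, SE 0.18, adjusted p = 0.000433). The other 8 of the 10 largest increases fell into immune and stromal genes. Ubd, a ubiquitin-like modifier induced by interferon gamma, changed by 2.21, Ly6c2, a surface protein of inflammatory monocytes, by 2.37 and Ccl8, a chemokine for monocytes and T cells, by 2.10. The inhibitor of the first complement component, Serping1, changed by 2.37. The remaining 4 genes encode components or regulators of the extracellular matrix: Col1a2 (2.29), the matricellular protein Tnc (2.19), the matrix Gla protein Mgp (2.13) and the metalloproteinase inhibitor Timp3 (2.11). Adjusted p-values of these 10 genes ranged from 0.000267 to 0.0079.

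Several of the largest decreases were in genes of the response to low oxygen. Bnip3 (chr7:138890836-138909519, minus strand), a mitochondrial protein that promotes mitophagy, stood at 37.3, 35.5, 60.4 and 55.7 CPM in high spots and at 230.1, 289, 131 and 235 CPM in low spots, with no overlap between the groups (log2 fold change -2.36, SE 0.29, adjusted p = 0.00186). Slc2a1, the glucose transporter GLUT1, stood at 36.6, 41.7, 58.6 and 57.8 CPM against 117, 177, 121 and 187 CPM (log2 fold change -1.78, SE 0.17, adjusted p = 0.000713), again without overlap. Ero1l, an oxidase of the endoplasmic reticulum, changed by -1.89, Mgarp by -1.84, Ankrd37 by -1.83 and the lipoprotein receptor Vldlr by -1.56. The other 4 of the 10 were the chaperone Hspa1b (-2.02), the stress-induced genes Ier3 (-1.69) and Trib3 (-1.45) and the respiratory chain subunit Cox6a2 (-1.61).

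**Figure D2:**
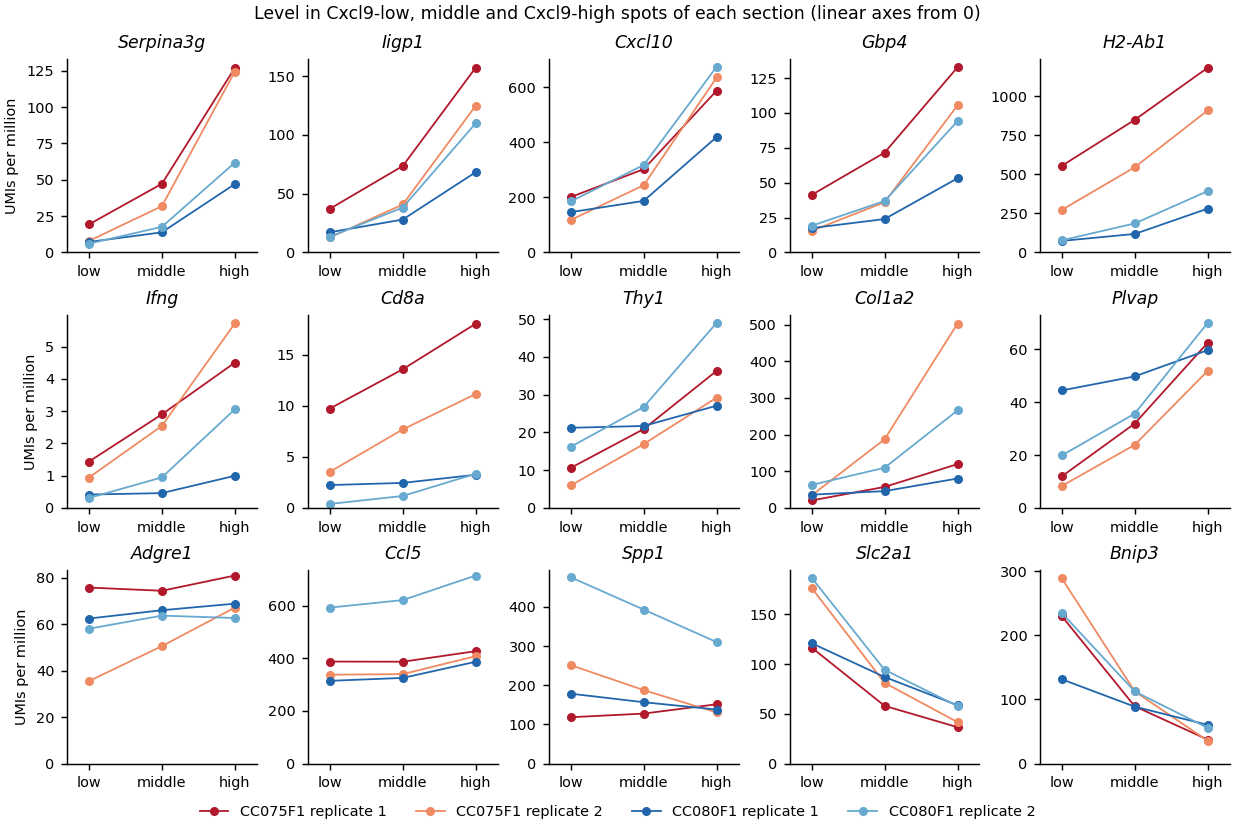
Level of 15 genes in the low, middle and high spots of each section (y axis: CPM, linear from 0; each line is 1 section). Serpina3g, Iigp1, Cxcl10 and Gbp4 rise in steps in all 4 sections, Bnip3 and Slc2a1 fall in steps in all 4, and Adgre1, Ccl5 and Spp1 did not pass the test.

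Interferon gamma itself was detected at low levels and was higher in high spots. Ifng stood at 4.51, 5.72, 0.998 and 3.06 CPM in high spots and at 1.44, 0.943, 0.416 and 0.309 CPM in low spots (log2 fold change 2.10, SE 0.30, adjusted p = 0.00331). It was higher in each section, although the ranges of the groups overlapped. Of the high spots, 10.6%, 17.5%, 2.89% and 6.73% held at least 1 Ifng UMI, and of the deeper low spots 4.77%, 4.10%, 1.44% and 1.17%. After thinning each spot to 5000 UMIs these shares were 1.89%, 2.77%, 0.361% and 2.24% against 0.628%, 0.820%, 0.241% and 0.107%. These thinned shares rest on 5, 9, 1 and 7 high spots and on 5, 8, 2 and 1 low spots.

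Of the 14 tested genes of interferon gamma signalling, 11 were higher in high spots and none was lower (median log2 fold change 0.77, against -0.02 over all genes tested). Irf1, a transcription factor induced by interferon gamma, stood at 235, 197, 179 and 210.4 CPM in high spots and 142, 82.1, 131 and 118 CPM in low spots, without overlap (log2 fold change 0.67, SE 0.08, adjusted p = 0.00181). Some upstream members of the pathway did not pass the test: the receptor chain Ifngr1 had a log2 fold change of 0.02 (SE 0.05, adjusted p = 0.77), the kinase Jak1 of 0.05 (SE 0.05, adjusted p = 0.573) and the kinase Jak2 of 0.11 (SE 0.06, adjusted p = 0.191). The sign of Ifngr1 turned in several alternative analyses. The second receptor chain, Ifngr2, was higher by 0.30 (adjusted p = 0.0129). Ciita, the master regulator of MHC class II genes, had the largest change of the list (log2 fold change 2.20, SE 0.14, adjusted p = 0.000267). Jak2, Ifngr2 and Ciita are named here after their values were seen.

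The guanylate-binding proteins and the immunity-related GTPases, interferon-induced enzymes that attack the membranes around intracellular pathogens, rose throughout. All 9 tested guanylate-binding protein genes were called higher (median 1.82, range 0.88 to 2.41), and so were all 8 tested immunity-related GTPase genes (median 1.91, range 1.29 to 2.66). Gbp4 stood at 133, 105, 53.2 and 94.1 CPM in high spots and 41.2, 15.4, 17.4 and 19.1 CPM in low spots (log2 fold change 1.96, SE 0.14, adjusted p = 0.000433). Gbp2 stood at 538, 547, 254 and 563 CPM against 203, 101, 116 and 147 CPM (log2 fold change 1.59, SE 0.15, adjusted p = 0.000713). For both genes the lowest high section was above the highest low section. Igtp, an immunity-related GTPase, stood at 183, 209, 67.6 and 152 CPM against 55.0, 33.6, 25.7 and 31.9 CPM (log2 fold change 1.88, SE 0.14, adjusted p = 0.000434). Among the other members were Gbp7 (1.49), Gbp3 (1.49), Ifi47 (1.44) and Irgm1 (1.29). The families hold near-identical copies, such as Tgtp1 and Tgtp2, whose separate values are uncertain because the counting could split or drop shared reads. Every tested member of both families was also called higher in each alternative analysis of the high-low comparison, except that without a filter on low counts 9 of 10 guanylate-binding protein genes were.

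Promoters are shown for genes on which these results turn, because the families share sequence elements that bind interferon-activated factors. They are RefSeq sequences of GRCm38.p6, 300 bases each, from 250 bases before to 50 bases after the annotated start, 5′ to 3′ on the strand of the gene. Capitals mark matches on either strand to TTCNNNGAA (GAS, the gamma-activated site), GAAA followed by any 2 bases and a further GAAA (core of ISRE, the interferon-stimulated response element), ACGTG (core of HRE, the hypoxia response element) and GGGANTTCC (a kB element, bound by NF-kB).
Cxcl9 promoter, chr5:92328030-92328329, minus strand: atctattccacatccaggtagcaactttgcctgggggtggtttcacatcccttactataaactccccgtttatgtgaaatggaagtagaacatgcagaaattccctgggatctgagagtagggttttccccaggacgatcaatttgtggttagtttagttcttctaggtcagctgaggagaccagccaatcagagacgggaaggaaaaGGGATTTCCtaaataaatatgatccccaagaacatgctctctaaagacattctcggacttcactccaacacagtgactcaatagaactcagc
Cxcl10 promoter, chr5:92348840-92349139, minus strand: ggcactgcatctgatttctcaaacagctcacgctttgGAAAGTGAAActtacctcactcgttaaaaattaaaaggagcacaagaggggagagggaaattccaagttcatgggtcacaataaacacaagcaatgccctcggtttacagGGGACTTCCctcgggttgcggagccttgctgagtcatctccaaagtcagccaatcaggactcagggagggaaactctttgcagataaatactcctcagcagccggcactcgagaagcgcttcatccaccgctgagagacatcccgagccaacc
Gbp7 promoter, chr3:142530086-142530385, plus strand: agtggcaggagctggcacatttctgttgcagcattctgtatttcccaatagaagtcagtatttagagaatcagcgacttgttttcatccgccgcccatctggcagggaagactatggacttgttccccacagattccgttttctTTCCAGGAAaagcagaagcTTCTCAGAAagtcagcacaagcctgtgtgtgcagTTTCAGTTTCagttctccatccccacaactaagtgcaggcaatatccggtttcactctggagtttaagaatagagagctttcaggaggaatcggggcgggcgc
Igtp promoter, chr11:58199306-58199605, plus strand: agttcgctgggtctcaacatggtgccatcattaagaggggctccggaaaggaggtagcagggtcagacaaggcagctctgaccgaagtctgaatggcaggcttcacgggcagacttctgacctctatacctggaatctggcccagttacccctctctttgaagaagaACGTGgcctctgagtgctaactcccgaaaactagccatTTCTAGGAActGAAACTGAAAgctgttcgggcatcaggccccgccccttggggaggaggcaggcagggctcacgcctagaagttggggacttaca
Serpina3g promoter, chr12:104235897-104236196, plus strand: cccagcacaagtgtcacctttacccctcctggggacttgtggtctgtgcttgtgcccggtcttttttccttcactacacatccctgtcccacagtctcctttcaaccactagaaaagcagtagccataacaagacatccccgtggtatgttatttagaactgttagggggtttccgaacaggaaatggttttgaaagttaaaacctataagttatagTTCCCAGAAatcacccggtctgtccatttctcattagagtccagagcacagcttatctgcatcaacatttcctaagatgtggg

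The Cxcl9 window held a single match, a kB element 42 to 34 bases before the start. The Cxcl10 window held an ISRE core 213 to 204 bases and a kB element 103 to 95 bases before the start. Gbp7 had 2 GAS matches and an ISRE core within 106 bases of the start, and Igtp had a GAS match 45 to 37 bases and an ISRE core 34 to 25 bases before it, beside an HRE core. In Serpina3g a single GAS match lay 33 to 25 bases before the start. RefSeq windows were found for 11 of the 19 listed genes of the guanylate-binding protein and immunity-related GTPase families. Of these genes 10 held an ISRE core and 6 a GAS match, or 83.3% and 50% of their 12 windows. Of all 32851 promoter windows, 3.44% held an ISRE core and 8.30% a GAS match, and of those of genes tested here 3.21% and 6.85%. Among windows of genes called higher, with 1019 of 1383 genes matched, 8.54% held an ISRE core and 9.83% a GAS match, and among windows of genes called lower, with 755 of 980 matched, 3.58% and 6.17%. Of the 10 largest increases 7 genes were matched, with 9 windows, of which 0 held an ISRE core and 1, that of Serpina3g, a GAS match. The windows of Ifi47, Ccl8 and Ly6c2 held no match to any of the elements. A match describes these letters and is not evidence of binding, and the absence of a match says only that the letters are not in this window.

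Antigen presentation by MHC class II was higher in high spots. Of 11 tested genes 9 were higher and none was lower (median 1.38). Cd74, the invariant chain, stood at 3048, 2765, 604 and 901 CPM against 1755, 967, 197 and 176 CPM (log2 fold change 1.42, SE 0.20, adjusted p = 0.00353), and H2-Ab1, a chain of the I-A molecule, at 1183, 909, 280.1 and 392 CPM against 554, 272, 73.5 and 77.3 CPM (log2 fold change 1.62, SE 0.17, adjusted p = 0.00103). Levels were several times higher in the CC075F1 sections than in the CC080F1 sections in both classes, so the class ranges overlapped across strains, but high spots exceeded low spots in every section. H2-Aa changed by 1.48, H2-Eb1 by 1.46 and the protease Ctss, which degrades the invariant chain, by 0.60. The genes that did not pass were H2-Oa (0.77, adjusted p = 0.0847) and H2-Ob (0.45, adjusted p = 0.312), chains of the peptide-loading modulator H2-O.

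MHC class I presentation moved less. Of 12 tested genes 9 were higher and none was lower, with a median of 0.31. The called genes belong to peptide generation, transport and loading, such as the immunoproteasome subunits Psmb8 (0.29, adjusted p = 0.0125) and Psmb10 (0.46, adjusted p = 0.0032) and, with the largest change of the list, the transporter Tap1 (0.85, adjusted p = 0.000809, named after its value was seen). The heavy chains H2-K1 (0.11, SE 0.08, adjusted p = 0.407) and H2-D1 (0.08, SE 0.08, adjusted p = 0.513) and the light chain B2m (0.06, SE 0.08, adjusted p = 0.632) were abundant in both classes and did not pass. H2-K1, for instance, stood at 2469, 2335, 1539 and 2092 CPM in high spots and at 2368, 1875, 1436 and 1438 CPM in low spots. The call on these 3 genes depended on how the classes were drawn, as given with the matched classes below.

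Genes of the type I interferon response, which also answer to interferon gamma, were higher for 14 of 16 tested members (median 0.68, none lower). Isg15, a secreted ubiquitin-like protein, stood at 64.1, 110.0, 130.4 and 161 CPM against 48.2, 61.8, 71.5 and 89.4 CPM (log2 fold change 0.60, SE 0.08, adjusted p = 0.00225). Irf7, an amplifier of type I interferon production, changed by 1.01, Ifi27l2a by 0.53 and the viral tether Bst2 by 0.34. The members that did not pass were Ifit1 (0.23, adjusted p = 0.135) and Rsad2 (0.19, adjusted p = 0.558).

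Cxcl10, which binds the same receptor as Cxcl9 and lies close to it on chromosome 5, stood at 588, 636, 419 and 675 CPM in high spots and 201, 118, 146 and 185 CPM in low spots, without overlap (log2 fold change 1.70, SE 0.11, adjusted p = 0.000267). Cxcr3, the shared receptor, was rare, at 0.773, 3.01, 1.12 and 2.48 CPM against 0.553, 0.662, 0.64 and 0.872 CPM (log2 fold change 1.28, SE 0.29, adjusted p = 0.0208), and its call was lost in 5 alternative analyses. Cxcl11 was not analysed here. Of the 10 CC chemokine genes with Cxcl16, 6 were higher (median 0.41), among them Ccl8 (above), Ccl2 (0.36, adjusted p = 0.028) and Ccl12 (0.45, adjusted p = 0.0277). The Ccl2 call was lost in hypoxia strata (0.16) and without CC075F1 replicate 1 (0.32), CC075F1 replicate 2 (0.32) or CC080F1 replicate 2 (0.31). Ccl5, a chemokine made by T cells, macrophages and other cells, stood at 427, 409, 387 and 715 CPM in high spots and 388, 338, 315 and 593 CPM in low spots. Its CPM was higher in every section, but with TMM scaling it did not pass (log2 fold change 0.10, SE 0.06, adjusted p = 0.28). With library size alone (0.25, adjusted p = 0.0169) and in hypoxia strata (0.28, adjusted p = 0.00018) it passed, and in macrophage strata its sign turned.

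T cell genes were higher in high spots. Of 13 tested T cell genes 11 were called higher and none lower (median 1.39), and their summed level was 189.8, 175, 72.4 and 126 CPM in high spots against 76.4, 53.0, 44.3 and 36.7 CPM in low spots. Thy1, a surface protein of T cells and some stromal cells, stood at 36.3, 29.2, 27.1 and 49.0 CPM against 10.6, 5.96, 21.2 and 16.2 CPM (log2 fold change 1.36, SE 0.23, adjusted p = 0.00642). The T cell receptor constant chains Trbc2 (1.35) and Trbc1 (1.39), near-identical copies, and the CD3 chain Cd3g (1.34) moved by like amounts. Cd8a, the coreceptor of cytotoxic T cells, stood at 18.0, 11.1, 3.24 and 3.34 CPM against 9.73, 3.53, 2.24 and 0.394 CPM (log2 fold change 1.19, SE 0.28, adjusted p = 0.0222). Cd8a was higher in each section, but its call was lost in 6 alternatives, among them those without CC075F1 replicate 1 (log2 fold change 1.41) and without CC075F1 replicate 2 (1.11). Cd8a had a UMI in 38.1%, 33.8%, 7.94% and 8.65% of high spots and in 26.9%, 15.0%, 8.06% and 1.49% of low spots, and after thinning to 5000 UMIs in 9.43%, 6.46%, 3.25% and 1.60% against 5.28%, 1.74%, 1.68% and 0.213%.

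Effector genes followed. Of 12 tested cytotoxic and natural killer genes 10 were higher and none was lower (median 1.04). Gzmb, a granzyme that kills target cells, stood at 4.89, 17.2, 3.24 and 14.2 CPM against 1.77, 6.00, 1.09 and 10.3 CPM (log2 fold change 0.98, SE 0.20, adjusted p = 0.013). The pore-forming protein Prf1 changed by 0.84 (adjusted p = 0.0335), the granule protein Nkg7 by 0.95 (adjusted p = 0.00271), the receptor Klrd1 by 0.97 (adjusted p = 0.0032) and the cytokine receptor chain Il2rb by 1.24 (adjusted p = 0.0022). Tbx21, the transcription factor that drives interferon gamma production, changed by 1.88 from levels under 3 CPM (adjusted p = 0.00841). Gzma (1.10, adjusted p = 0.0328) rested on unequal sections, with 5.79, 22.1, 2.25 and 23.1 CPM in high spots and 3.20, 3.95, 1.47 and 15.3 CPM in low spots, and lost its call without CC075F1 replicate 1 (1.17) or without CC080F1 replicate 2 (1.38). The Gzma call was also lost with the top 20% as the high class (0.83) and without edge spots (1.09). The Prf1 call was lost in 10 alternatives, among them macrophage strata (0.42) and those without CC075F1 replicate 1 (0.63) and without CC075F1 replicate 2 (0.66). The Gzmb call was lost without CC075F1 replicate 2 (0.84). With the Cxcl9 share taken after thinning to 5000 UMIs, Gzmb (0.53) and Gzma (0.89) lost their calls. Without the section as a block, Gzmb (0.88) and Gzma (1.15) lost them as well.

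Checkpoint genes moved in the same direction. Of 7 tested receptors 4 were higher (median 1.09) and of 8 tested ligands 7 were higher (median 0.98), with none lower in either list. Pdcd1, which encodes PD-1, stood at 11.2, 4.22, 2.37 and 3.82 CPM against 4.27, 1.42, 1.18 and 1.04 CPM (log2 fold change 1.32, SE 0.17, adjusted p = 0.0024), and its ligand Cd274, PD-L1, at 13.6, 12.4, 12.4 and 10.4 CPM against 6.48, 5.56, 7.94 and 5.43 CPM (log2 fold change 0.81, SE 0.10, adjusted p = 0.00204). The groups of Cd274 did not overlap. Ctla4, an inhibitory receptor also carried by regulatory T cells, changed by 2.07 (adjusted p = 0.00148), Havcr2 (TIM-3) by 0.50 (adjusted p = 0.0339) and Lag3 by 1.16 (adjusted p = 0.0192). The Havcr2 call was lost in 8 alternatives, among them those without CC075F1 replicate 1 (0.55), without CC075F1 replicate 2 (0.36) and without CC080F1 replicate 2 (0.47), and the Lag3 call in 7, among them those without CC075F1 replicate 2 (0.95) and without CC080F1 replicate 2 (1.13). Tox, a transcription factor of exhausted T cells, did not pass (log2 fold change 1.09, SE 0.33, adjusted p = 0.0518). Of the study's interferon gamma signature 17 genes were listed here, without Cxcl9, and 16 could be tested. Of these 16 genes 14 were higher and none was lower (median 1.16). Of 21 tested genes picked from those the study names 14 were higher and none was lower (median 0.98). Ido1, a signature gene whose product degrades tryptophan, stood at 11.7, 10.7, 0.873 and 0.669 CPM against 2.62, 1.24, 0.192 and 0.141 CPM (log2 fold change 2.38, SE 0.22, adjusted p = 0.000655) and stayed under 1 CPM in both classes of CC080F1 tumors. Among regulatory T cell genes 5 of 6 were higher (median 1.71), including Il2ra (2.20, adjusted p = 0.001), Tnfrsf18 (1.59, adjusted p = 0.000832) and the defining transcription factor Foxp3 (log2 fold change 1.83, SE 0.33, adjusted p = 0.00869), named after its value was seen. Foxp3 was sparse, with a UMI in 4.15%, 3.69%, 2.17% and 5.77% of high spots and 1.63%, 0.615%, 1.20% and 1.60% of low spots. After thinning as for Ifng, the shares were 0.377%, 0.923%, 0.361% and 1.28% against 0.377%, 0%, 0.361% and 0.320%. These thinned shares rest on 1, 3, 1 and 4 high spots and on 3, 0, 3 and 3 low spots. They were higher in high spots of CC075F1 replicate 2 and CC080F1 replicate 2 and alike in the other sections.

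Macrophage genes were less different between the classes than the interferon genes. Of 12 tested pan-macrophage genes 7 were higher and none was lower, with a median of 0.36, and their summed level was 7269, 7354, 4556 and 5211 CPM in high spots and 6348, 3924, 3897 and 3732 CPM in low spots. The complement components C1qa (0.46, adjusted p = 0.0102) and C1qb (0.41, adjusted p = 0.0144) and the lysozyme gene Lyz2 (0.31, adjusted p = 0.0185) were called. The surface marker Adgre1 (F4/80) stood at 81.0, 67.2, 68.9 and 62.7 CPM against 75.8, 35.5, 62.5 and 58.1 CPM and, with TMM scaling, did not pass (log2 fold change 0.17, SE 0.10, adjusted p = 0.26). Neither did Cd68 (-0.02, adjusted p = 0.879), Itgam (-0.15, adjusted p = 0.545) or Apoe (0.11, adjusted p = 0.538), and with library size alone the sign of Cd68 turned (0.13). Without CC080F1 replicate 2, 1 of the 12 genes was called higher. In contrast, 5 of 6 monocyte genes were higher with a median of 2.17. The chemokine receptor Ccr2, which brings monocytes into tissue, stood at 74.3, 38.5, 88.2 and 86.9 CPM against 31.9, 12.9, 54.9 and 31.0 CPM (log2 fold change 1.09, SE 0.11, adjusted p = 0.000878), and Plac8 changed by 1.98 (adjusted p = 0.00221). The remaining member, Vcan, did not pass (0.21, adjusted p = 0.25).

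Genes of the Spp1 type of tumor macrophage went the other way. Of 7 tested genes none was higher and 4 were lower (median -0.60). Spp1, which encodes osteopontin, stood at 151, 130.4, 138 and 310.0 CPM in high spots and 118, 251, 178 and 475 CPM in low spots. It was lower in 3 sections and higher in CC075F1 replicate 1 and did not pass (log2 fold change -0.55, SE 0.20, adjusted p = 0.0895), and without that section its log2 fold change was -0.82 and passed. Arg1, the arginine-degrading enzyme of suppressive macrophages, stood at 18.9, 12.4, 23.6 and 48.5 CPM against 23.9, 14.8, 49.4 and 69.9 CPM (log2 fold change -0.70, SE 0.10, adjusted p = 0.0036). Hmox1, a heme-degrading enzyme, changed by -1.35 (adjusted p = 0.00179) and the lipid carrier Fabp5 by -0.33 (adjusted p = 0.0134), and Fabp5 lost its call with library size alone (-0.18). Genes of resident-like macrophages were mixed: 2 of 9 were higher and 3 lower. Ccl8 was among the former, and F13a1 (-0.83, adjusted p = 0.0217) and Fcrls (-0.73, adjusted p = 0.0157) among the latter, while the mannose receptor Mrc1 did not pass (0.09, adjusted p = 0.483).

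Dendritic cell genes were higher. Of cDC1 genes, which mark the cells that cross-present antigen to CD8+ T cells, 6 of 7 were higher (median 1.33), including the transcription factor Batf3 at 14.0, 16.3, 5.61 and 6.98 CPM against 7.00, 3.83, 2.40 and 2.53 CPM (log2 fold change 1.33, SE 0.16, adjusted p = 0.00171). The defining receptors Clec9a (log2 fold change 2.98, SE 0.38, adjusted p = 0.0022) and Xcr1 (log2 fold change 2.12, SE 0.33, adjusted p = 0.00453), named after their values were seen, were higher as well. Xcr1 had a UMI in 8.30%, 3.69%, 2.53% and 2.56% of high spots and in 2.26%, 1.23%, 0.481% and 0.426% of low spots. After thinning as for Ifng, Xcr1 remained in 9, 1, 0 and 0 high spots and in 1, 2, 0 and 1 low spots. All 4 tested cDC2 genes were higher (range 0.34 to 1.53), among them the integrin Itgax (log2 fold change 1.15, SE 0.12, adjusted p = 0.0011). Of 7 tested genes of mature migratory dendritic cells 5 were higher (median 1.46), including Ccl17 (log2 fold change 2.88, SE 0.28, adjusted p = 0.000713), a chemokine that attracts T cells through CCR4. Fscn1 (-0.01) and Relb (0.01) were not, and Fscn1 stood at 166, 94.3, 233 and 179 CPM against 167, 73.1, 224 and 162 CPM. Of 4 tested B and plasma cell genes Ighm was higher (log2 fold change 0.96, SE 0.14, adjusted p = 0.00391), and of 5 tested neutrophil genes Csf3r (0.71, adjusted p = 0.0362) and Il1r2 (1.01, adjusted p = 0.0374), the last of which stayed under 3 CPM.

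Fibroblast genes were mixed and vessel genes were higher in high spots. Of 10 fibroblast genes 6 were higher and 1 was lower (median 1.69), but their summed level was 1745, 2088, 3016 and 2929.7 CPM in high spots and 2033, 753, 2800.2 and 2550.2 CPM in low spots, thus lower in CC075F1 replicate 1 and higher in the other sections. Col1a2, a chain of type I collagen, stood at 119.6, 503, 80.4 and 266 CPM in high spots and 20.5, 34.4, 36.2 and 62.8 CPM in low spots (log2 fold change 2.29, SE 0.33, adjusted p = 0.00357), and its partner chain Col1a1 changed by 1.82 (adjusted p = 0.0144). The Col1a1 call was lost in 5 alternatives, among them those without edge spots (1.98), without CC075F1 replicate 1 (1.87) and without CC080F1 replicate 2 (1.97). The Col1a2 increase was larger in the CC075F1 sections than in CC080F1 replicate 1. Col3a1, type III collagen, did not pass (0.08, SE 0.21, adjusted p = 0.813), and Dcn, a small proteoglycan, was lower at 432, 312, 497 and 713 CPM against 609, 410.1, 593 and 889 CPM (log2 fold change -0.51, SE 0.07, adjusted p = 0.00309). Of 10 endothelial genes 9 were higher (median 1.28), with a summed level of 257, 233, 270.0 and 318 CPM against 59.8, 53.2, 204 and 100.4 CPM. Plvap, a protein of fenestrated and tumor vessels, stood at 62.4, 51.8, 59.6 and 70.0 CPM against 11.9, 8.31, 44.4 and 19.9 CPM (log2 fold change 1.64, SE 0.29, adjusted p = 0.00756), Egfl7 changed by 1.37 (adjusted p = 0.00592), Cdh5 by 1.12 (adjusted p = 0.00438) and Pecam1 by 1.09 (adjusted p = 0.0133).

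All 12 genes of the hypoxia response list were lower in high spots (median -1.25, range -2.87 to -0.78). Their summed level was 2277, 1905, 2356 and 2415 CPM in high spots and 4368, 4292, 3126 and 4309 CPM in low spots, without overlap. The glycolytic enzymes Ldha (log2 fold change -0.78, SE 0.12, adjusted p = 0.00498) and Pgk1 (log2 fold change -0.98, SE 0.14, adjusted p = 0.00359) belong to the list, and Ndrg1 changed by -1.28 (adjusted p = 0.00158). Car9, a carbonic anhydrase that is among the most specific targets of hypoxia-inducible factors, had the largest change of the list (log2 fold change -2.87, SE 0.18, adjusted p = 0.000267, named after its value was seen). With library size alone 11 of the 12 were called lower. The promoters of Bnip3 and Slc2a1 are shown because both genes were among the 10 largest decreases and carry the HRE core, with the capitals as above.
Bnip3 promoter, chr7:138909457-138909756, minus strand: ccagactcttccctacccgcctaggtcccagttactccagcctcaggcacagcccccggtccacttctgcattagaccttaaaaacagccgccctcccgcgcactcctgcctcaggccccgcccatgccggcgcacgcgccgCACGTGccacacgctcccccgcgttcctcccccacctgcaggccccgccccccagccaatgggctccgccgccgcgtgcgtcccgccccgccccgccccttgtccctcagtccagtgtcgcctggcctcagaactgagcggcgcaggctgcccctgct
Slc2a1 promoter, chr4:119108495-119108794, plus strand: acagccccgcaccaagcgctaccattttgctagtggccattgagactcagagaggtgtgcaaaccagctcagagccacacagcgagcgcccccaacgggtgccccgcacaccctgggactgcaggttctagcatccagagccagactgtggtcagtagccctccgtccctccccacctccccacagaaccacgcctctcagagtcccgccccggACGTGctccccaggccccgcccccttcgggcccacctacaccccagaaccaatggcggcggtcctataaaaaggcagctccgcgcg

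The Bnip3 window held the palindrome CACGTG 108 to 103 bases before the start, which counts as a match on each strand, and the Slc2a1 window held ACGTG 36 to 32 bases before the start. An HRE core stood in the windows of 10 of the 11 matched genes of the hypoxia list, or in 76.9% of their 13 windows. It stood in 19.6% of all promoter windows, in 24.8% of those of genes tested, in 31.7% of those of genes called lower and in 17.0% of those of genes called higher.

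Of 7 listed genes of MC38 and epithelial cells 2 could be tested, and neither passed. Shisal2b, which the study used as a marker of MC38 cells, stood at 148, 266, 111 and 256 CPM in high spots and 131, 216, 129 and 276 CPM in low spots and did not pass (log2 fold change -0.11, SE 0.07, adjusted p = 0.323), and its sign turned with library size alone (0.04). The epithelial genes Krt8, Krt18, Krt19, Cldn4 and Epcam were too low to be tested in either class. Of 10 cell cycle genes 3 were higher, against 10.5% of all genes, and none was lower (median 0.14), with Top2a at 0.06 and Cdk1 at -0.01, neither called. Genes of tissues around the tumor were measured for each class. Neither of 2 tested keratinocyte genes (median -0.57) and neither of 2 tested adipocyte genes (median 1.06) passed, and of 6 skeletal muscle genes only Acta1 did (log2 fold change 1.64, SE 0.19, adjusted p = 0.00155), at 0.258, 57.5, 17.3 and 0.287 CPM against 0.111, 18.5, 3.46 and 0.141 CPM, so that it was present in 2 sections. The 4 hemoglobin genes of erythrocytes had a median of -0.72 and none passed. Their summed level was 39.1, 82.2, 83.6 and 202 CPM in high spots and 10.7, 654, 154 and 88.6 CPM in low spots, lower in high spots of CC075F1 replicate 2 and CC080F1 replicate 1 and higher in the other sections.

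**Figure D3:**
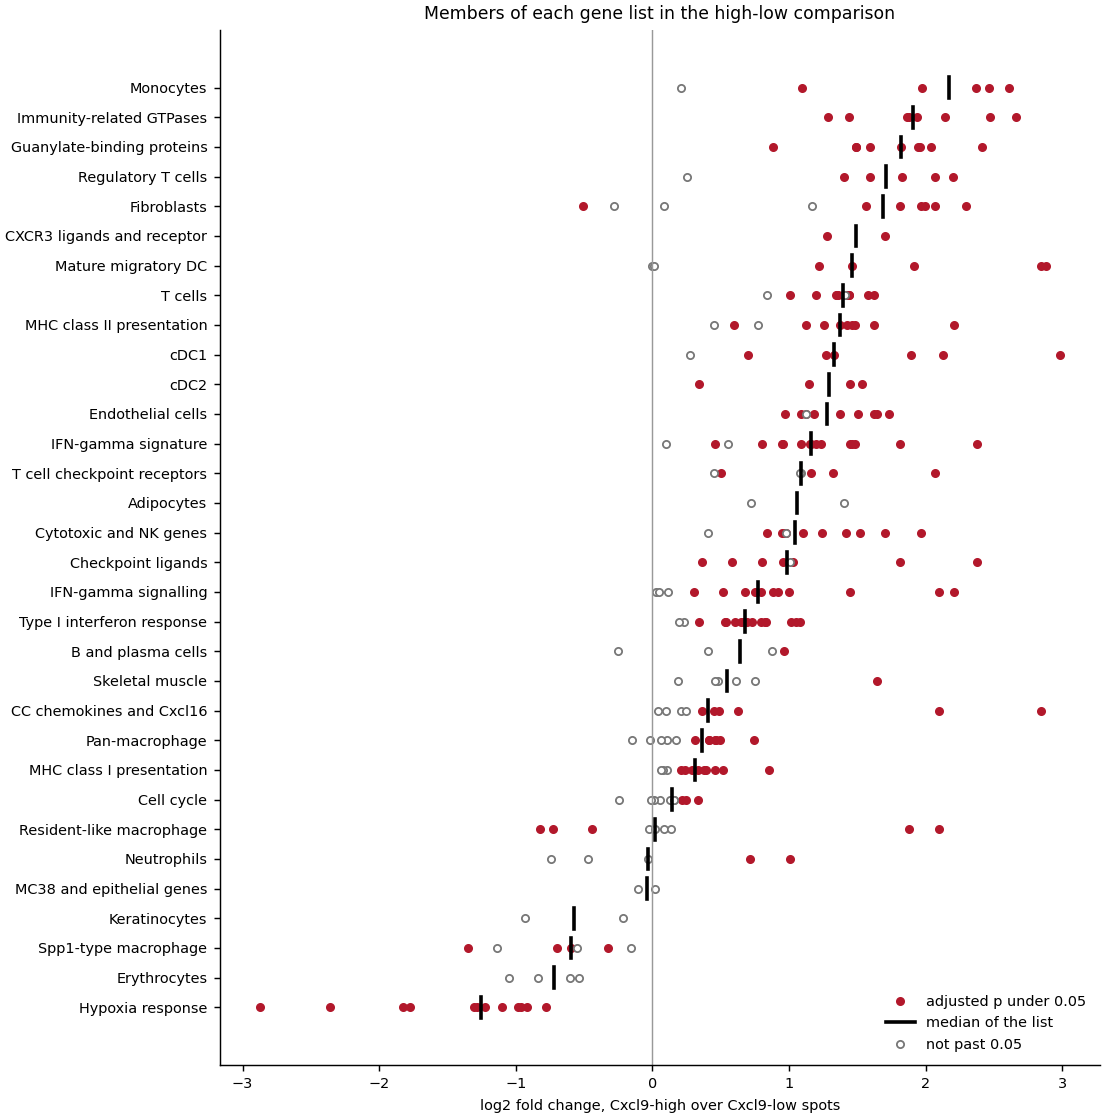
Log2 fold change of high over low spots (x axis) for the tested members of each gene list (1 line per list, ordered by median; filled points passed an adjusted p of 0.05, open points did not, black bars are medians). Monocyte, immunity-related GTPase, guanylate-binding protein, regulatory T cell and fibroblast lists have medians of 2.17, 1.91, 1.82, 1.71 and 1.69, and all 12 hypoxia genes lie below 0.

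Some further calls named above were lost when 1 section was left out, with fold changes that moved little. Such a fit has fewer sections, so a lost call does not show that the change came from the section left out. Without CC080F1 replicate 2 the calls on Cxcr3 (1.20), Psmb8 (0.25), Bst2 (0.31), Ifi27l2a (0.56), Lyz2 (0.31), C1qb (0.38), Fabp5 (-0.35), Fcrls (-0.73), F13a1 (-0.75), Tbx21 (1.81) and Foxp3 (1.76) were lost. Without CC075F1 replicate 1 those on Psmb8 (0.30) and Lyz2 (0.32) were lost, and without CC075F1 replicate 2 that on Cxcr3 (0.98).

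The lists above are linked in the tissue, so classes were also drawn among spots of like content, an alternative chosen after seeing the data. Spots of a section were ordered by the summed share of a list, cut into 10 strata, and the top 10% and lowest 30% for Cxcl9 were taken within each stratum. Among spots matched for the hypoxia list, that list's own median was -0.17, which the matching itself constrains, and 1126 genes were higher and 421 lower. The guanylate-binding proteins remained at a median of 1.57 and the immunity-related GTPases at 1.65, with every tested member called, and T cell genes at 0.90 with 10 of 13 called. Slc2a1, Ankrd37, Ndrg1, Ldha, Ier3 (-0.23), Cox6a2 (-0.25) and Arg1 (-0.0059) no longer passed. Neither did Fabp5 (-0.0094) and Gpnmb (-0.18), both of the Spp1 type list, the metallothioneins Mt1 (-0.17) and Mt2 (-0.16) or Acta1 (0.033). The calls on Cd8a (0.68), Prf1 (0.56) and Ccl2 (0.16) were lost as well, and the sign of Hspa1b turned (0.080). H2-K1 (0.19), H2-D1 (0.16) and B2m (0.18) were now called higher. Among spots matched for the pan-macrophage list the guanylate-binding proteins had a median of 1.60, and among spots matched for fibroblast and endothelial genes of 1.81. Matching for fibroblast and endothelial genes left the median of the fibroblast list at 0.86 and of the endothelial list at 0.99.

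**Figure D4:**
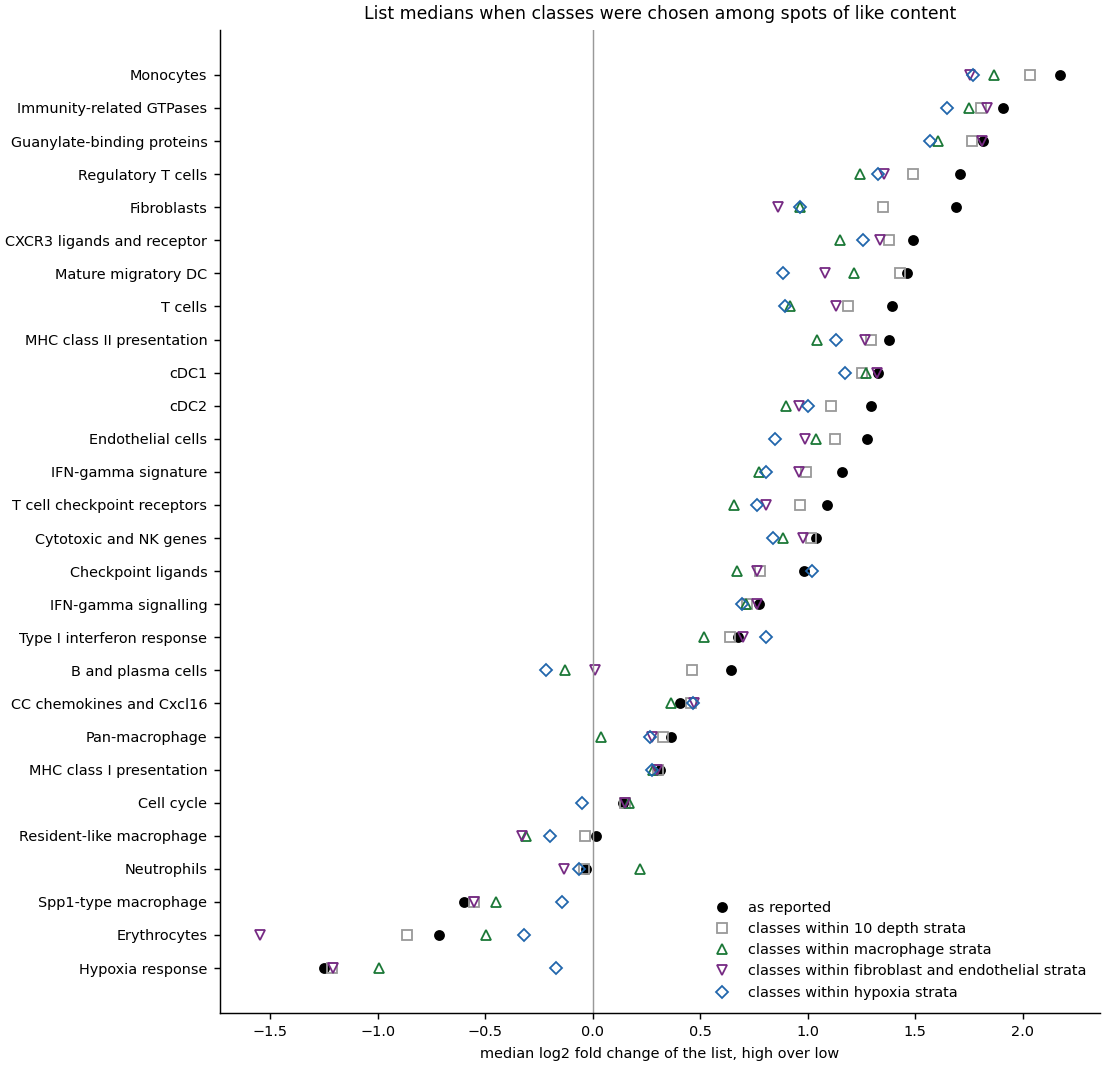
Median log2 fold change of each list, high over low spots (x axis), for the classes as reported and for classes drawn within strata of depth, macrophage, fibroblast and endothelial, and hypoxia content (symbols). The guanylate-binding protein median stays between 1.57 and 1.82 under these 5 settings, and the hypoxia median moves from -1.25 to -0.17 when hypoxia itself is matched.

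Spots near the high class were compared with spots far from it. Among middle spots, 653, 717, 584 and 733 touched a high spot, and 499, 699, 678 and 624 lay at least 3 grid steps from any. Place on the grid took no part in choosing the classes, but Cxcl9 still differed between these spots, at 386, 405, 58.6 and 146 CPM near against 286, 234, 38.6 and 86.1 CPM far. Of 13340 genes tested 305 were higher near high spots (2.29%) and 376 were lower (2.82%), 5.1% in all, and 2462 passed an unadjusted p of 0.05 (18.5%). With library size alone 840 were higher and 178 lower. Without CC080F1 replicate 2, 113 were higher and 104 lower. Near spots were also shallower, with medians of 29121, 33720.0, 30041.5 and 33996 UMIs against 33026, 46115, 34736.5 and 35250.5 UMIs, and the part of depth in the result was not tested.

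Serpina3g again had a large increase, at 59.8, 43.3, 20.7 and 25.0 CPM near and 34.3, 21.5, 9.39 and 11.6 CPM far (log2 fold change 0.92, SE 0.06, adjusted p = 6.19e-06), and every section moved the same way. Serping1 changed by 0.83 and the matrix protein Postn by 0.79. Col1a2 changed by 0.82 but was slightly lower near than far in CC080F1 replicate 1, at 70.2, 272, 44.7 and 149 CPM near and 42.3, 106, 47.4 and 65.6 CPM far, and lost its call without CC080F1 replicate 2 (0.68). Among genes of at least 10 CPM, Acta1 had the largest increase (log2 fold change 0.95, SE 0.10, adjusted p = 0.000247) but came from 2 sections. The largest decrease was that of Ptgs2, which encodes cyclooxygenase 2, at 4.30, 8.21, 8.10 and 8.10 CPM near and 5.15, 14.2, 27.0 and 18.6 CPM far (log2 fold change -1.18, SE 0.14, adjusted p = 0.000432). Ier3 (-1.05), Bnip3 (-0.89) and the hemoglobin genes Hba-a1 (-0.88) and Hba-a2 (-0.89) followed. With DESeq2 the calls on Acta1 (0.40), Serping1 (0.77), Col1a2 (0.73), Bnip3 (-0.87), Hba-a1 (-0.76) and Hba-a2 (-0.81) were lost, and Hba-a2 also lost its call without CC075F1 replicate 1 (-0.90) or replicate 2 (-0.32) and Hba-a1 without CC075F1 replicate 1 (-0.90). By list, all 9 guanylate-binding protein genes, 7 of 8 immunity-related GTPase genes, 5 of 6 monocyte genes, 7 of 11 MHC class II genes and 7 of 10 endothelial genes were higher near high spots, and 10 of 12 hypoxia genes were lower. Over all genes tested, 2.29% were called higher near high spots and 2.82% lower. Of the type I interferon genes none of 16 was called, which does not set them apart from all genes, and of the T cell genes 2 of 13 were higher. Skeletal muscle genes were higher near high spots for 5 of 6 and hemoglobin genes lower for 4 of 4, and their part in the result was not tested.

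Levels fell off over a few grid steps. Cxcl9 stood at 344, 367, 47.9 and 131 CPM in all other spots 1 step from a high spot, at 202, 177, 21.9 and 55.9 CPM at 3 steps and at 160.1, 104, 20.9 and 26.1 CPM at 5 or more. Summed guanylate-binding proteins, whose RNA the rule did not use, were at 1142, 1016, 517 and 996 CPM in high spots, 732, 493, 317 and 518 CPM at 1 step and 399, 217, 229 and 252 CPM at 5 or more. For the guanylate-binding proteins the drop from high spots to their neighbours was the steepest step of the profile in each section. The hypoxia sum rose from 2722, 2316, 2659 and 2904 CPM at 1 step to 4348, 4306, 2645 and 4157 CPM at 5 or more, a rise seen in 3 sections, while CC080F1 replicate 1 fell back to its level at 1 step.

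**Figure D5:**
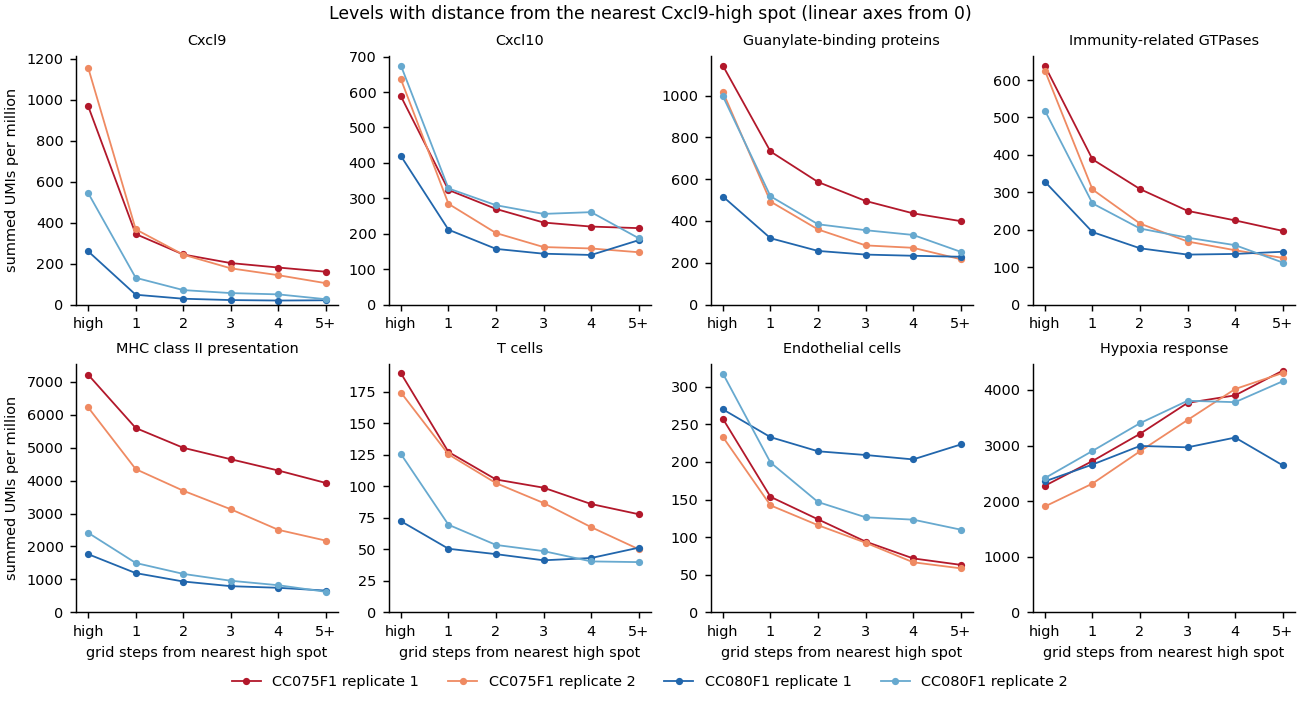
Level of Cxcl9, Cxcl10 and 6 summed gene lists (y axis: CPM, linear from 0) against grid steps from the nearest high spot (x axis), 1 line per section. The summed guanylate-binding proteins fall from 517 to 1142 CPM in high spots to 217 to 399 CPM at 5 or more steps, while the hypoxia list rises in 3 sections and falls back at 5 or more steps in CC080F1 replicate 1.

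The high-low contrast was tested for a difference between strains. Of 13207 genes 1 was called (0.00757%) and 708 passed an unadjusted p of 0.05 (5.36%). That gene was Lum, a proteoglycan of fibroblasts, at 11.1, 25.3, 8.73 and 25.0 CPM in high spots and 2.10, 3.47, 7.20 and 22.7 CPM in low spots. Its contrast was larger in CC075F1 by 2.38 on the log2 scale (SE 0.19, adjusted p = 0.0118). The medians of the strain difference were 0.20 for guanylate-binding proteins, 0.21 for immunity-related GTPases, -0.44 for MHC class II and -0.50 for the hypoxia list, with no member called. In simulated data the same test recovered 52.5% of the changes put in and 11.9% of the smallest ones. The lack of calls therefore does not show that the contrast was alike in the strains.

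Across all spots of a section, the genes whose share of UMIs ran most parallel to that of Cxcl9 were the long transcript AW112010 (mean Spearman correlation over the 4 sections 0.495), Cd74 (0.491), H2-Ab1 (0.489), Gbp2 (0.478) and the surface protein Ly6a (0.473), among 8451 genes of at least 10 CPM. These are descriptions over 2652 to 3252 spots per section that share a library and differ in depth. The correlations were highest in CC075F1 replicate 2 and lowest in CC080F1 replicate 1, where AW112010 reached 0.699 and 0.272. Both leading genes outside the lists also rose in the class comparison, AW112010 at 566, 934, 156 and 369 CPM against 243, 226, 65.7 and 104 CPM (log2 fold change 1.45, SE 0.11, adjusted p = 0.000434) and Ly6a at 252, 787, 109 and 513 CPM against 90.8, 155, 34.4 and 96.2 CPM (log2 fold change 1.84, SE 0.14, adjusted p = 0.000433).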

How the data were processed

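Gene expression was measured with Visium in 4 fresh frozen tumor sections. The deposited matrices hold UMI counts per gene and spot that the authors made with Space Ranger against mm10, without normalization or pooling. Section totals ranged from 82594649 to 146460975 UMIs and median depth from 31139 to 41740 UMIs per spot. The members, gene lists and tests were chosen with earlier results of these data known. UMIs were summed per class and section and tested with edgeR 4.0.16 in R 4.3.3 (quasi-likelihood, section as a block, TMM scaling, filterByExpr, Benjamini-Hochberg adjustment at 0.05), without Cxcl9. The strain difference was tested as an interaction, and neighbours of high spots (touching a high spot against at least 3 steps away) in a fit of their own. The mitochondrial share, genes per spot and the share near the tissue edge were compared with a two-sided exact permutation test that exchanged the classes within sections. Depth and the share of high neighbours were only described. Named genes were the 10 largest called changes per direction with a mean of at least 10 CPM and the same sign in all 4 sections. To these were added up to 4 members of each list with the highest mean CPM and a few members with a defining role. Also named were 21 genes picked from those the study names and up to 5 per direction of the strain difference and of the neighbours. The 5 genes most parallel to Cxcl9 completed the set. Other genes were chosen after their values were seen, and 1 listed gene is not reported here. Gene positions came from the GENCODE annotation of GRCm38 for 149 of 149 named genes, and promoters from RefSeq. The fits were tested on simulated data with 200 known changes each. The high-low fit recovered 84.5% of them, and 25 of its 194 calls were false. The fit of the strain difference recovered 52.5%, with 7 of 112 calls false. The fit of the neighbours recovered 87%, with 11 of 185 calls false. Alternatives were DESeq2 1.42.0, limma-voom (limma 3.58.1), other scalings, filters, class limits and depths, each section left out, and classes drawn within strata of depth or content, the last chosen after seeing the data. In 1 alternative the classes were set on a random split of the UMIs of each spot and genes compared in the rest.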

Additional observations from a re-analysis of the deposited data

Results flagged for a closer look

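For 123 results the 4 section values of the high-low log2 ratio were searched for a section that stood apart from the other 3 (Dixon's test), which chance gives in about 1 in 20 groups. CC080F1 replicate 2 stood apart for Jak1 at -0.093 and for H2-K1 at 0.39. CC075F1 replicate 2 stood apart for Gzma at 2.10 and for Adgre1 at 0.55. CC075F1 replicate 1 stood apart for Fabp5 at -0.60 and for the immunoglobulin chain Igkc at 2.97. CC080F1 replicate 1 stood apart for Ccl2 at -0.068 and for Car9 at -1.97.

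Between strains, the high-low difference in the share of mitochondrial UMIs was 0.455 percentage points larger in CC075F1, where both sections were positive, than in CC080F1, where both were negative. The difference in the share of spots near the tissue edge was 24.7 percentage points larger in CC075F1, again with opposite signs in the strains. Neither strain difference was tested. The high-low contrast of Lum differed between strains by 2.38 on the log2 scale, the only gene that passed the interaction test.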

How the results depend on the processing

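The number of genes higher in high spots, 1383 as reported, was 2130 with library size alone, 302 with no replicate block, 660 with the Cxcl9 share taken after thinning, and 523 to 1705 with 1 section left out. The number lower, 980 as reported, was 348, 43 and 236 under the same 3 settings, 1616 with no filter on low counts, 421 within hypoxia strata and 190.0 to 1351 with 1 section left out. The lowest of both came without CC080F1 replicate 2.

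The strain difference called 1 gene higher and 0 lower as reported. Higher calls were 0 with library size alone, thinning and macrophage or fibroblast and endothelial strata, 178 with no filter, 14 with DESeq2, 2 with a higher minimum depth or depth strata, 5 with the top 5%, 6 with classes from a random split of the UMIs, 11 within hypoxia strata and 4 to 234 with 1 section left out. Lower calls were 70 with no filter, 4 with DESeq2, 14 within hypoxia strata, 1 with the lowest 10%, without edge spots and within macrophage or fibroblast and endothelial strata, and 1 to 213 with 1 section left out. Adding a replicate block to the strain difference gave 205 higher and 129 lower. The labels share replicate numbers between strains without pairing the tumors, and the deviations of the first replicates correlated at 0.14 over 13207 genes.

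Of the genes near high spots, 305 higher and 376 lower as reported, 840 and 178 were called with library size alone, 580.0 and 648 with no filter, 97 and 164 with DESeq2, 0 and 0 with no replicate block, 88 and 247 among middle spots below the median Cxcl9 share, and 113 to 407 and 104 to 443 with 1 section left out.

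Signs turned as follows, and the cause was not tested. Genes per spot went to 0.055 in depth strata and 0.012 in macrophage strata. In hypoxia strata Hspa1b went to 0.080, Ifngr1 to -0.0022, Cd68 to 0.11, Col3a1 to -0.11 and Igkc to -0.81. In macrophage strata Ifngr1 went to -0.082, Adgre1 to -0.055, Lyz2 to -0.082, Apoe to -0.38, Ccl5 to -0.071, Col3a1 to -0.28, Acta1 to -0.44 and Igkc to -1.68. In fibroblast and endothelial strata Ifngr1 went to -0.027, Apoe to -0.030, Col3a1 to -0.23, Acta1 to -0.36 and Igkc to -0.93. Ifngr1 went to -0.015 with no filter and to -0.0028 in depth strata, Jak1 to -0.011 after thinning, Cd68 to 0.13 and Shisal2b to 0.043 with library size alone, and with no replicate block Cd68 to 0.0042 and Col3a1 to -0.044.

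With each section left out in turn, the mitochondrial share ran from -0.0059 (without CC075F1 replicate 1) to 0.171, Ifngr1 from -0.0097 to 0.042, H2-D1 from -0.0074 to 0.118 and B2m from -0.013 to 0.13 (each lowest without CC080F1 replicate 2), Itgam from -0.29 to 0.023 and Cd68 from -0.078 to 0.032 (each highest without CC075F1 replicate 1), Col3a1 from -0.20 (without CC075F1 replicate 2) to 0.31 and Hbb-bs from -1.13 to 0.40 (without CC075F1 replicate 2).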

Other observations

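Gene groups chosen after seeing the data gave further values, described without a test of the groups. All 8 tested complement genes were higher in high spots (median log2 fold change 1.53), among them C3 at 43.3, 28.9, 11.5 and 45.6 CPM against 8.91, 6.98, 3.68 and 9.37 CPM (log2 fold change 1.95, SE 0.11, adjusted p = 0.000267) and C4b (1.14). Of 10 genes of the stress response to amino acid and protein load all were lower (median -1.02), and 9 were with library size alone. Chac1, a glutathione-degrading enzyme, was among them (log2 fold change -1.29, SE 0.16, adjusted p = 0.00187). Of 9 tested glycolysis enzymes 8 were lower (median -0.69). The metallothioneins Mt1 (-1.16) and Mt2 (-1.24), which bind zinc and copper, were lower too, but neither passed in hypoxia strata (-0.17 and -0.16).

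Of 84 tested genes of nuclear-encoded ribosomal proteins 60 were lower and none was higher, with a median of -0.35, and 81 of the 84 had a negative fold change. With library size alone the median was -0.20, with 50 lower and 1 higher. Of the 13 mitochondrially encoded transcripts none was called in edgeR. Across spots, Rpl13 was also the gene least parallel to Cxcl9, with a mean Spearman correlation of -0.398.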
